A study of Mus musculus with 6 samples.

Results

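The cells described here are those to which the authors' annotation gave the label B cells, 124 of the 33961 cells deposited for CD45+ enriched, tumor-infiltrating leukocytes of CT26 tumors. CT26 is a mouse colon carcinoma line, and it was grown here in Balb/c females. The sample labels describe 6 tumors taken 5 days after treatment, in 3 groups of 2: a vehicle control, and a low and a high dose of a bispecific antibody that carries an anti-PD-1 arm and GITR ligand. For the low dose 1 field of the labels gives 30 mg per kg and another 10 mg per kg, and for the high dose both give 30 mg per kg. The study's text describes an isotype control where the labels say vehicle, and a high dose that differs from the labels. All tumors went through the same bead enrichment for CD45, a surface protein of leukocytes, and 15687 of the cells still had the label Stroma. The count table holds 4 libraries, M1, M2, M5 and M6, and no library name matches a sample or a group, so no comparison between treatments was made and libraries are given side by side. The label had been set for each cell by the ImmGen reference profile with which its expression correlated best. The cells were therefore chosen by their expression, and which genes entered the correlation is not stated. Differences from other labels are given as descriptions with no test.

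B cells carry an immunoglobulin on their surface as antigen receptor, with the signalling chains CD79a and CD79b beside it. A naive B cell makes IgM and IgD from 1 long transcript, a stimulated cell can switch to IgG, IgA or IgE, and a plasma cell stops displaying the receptor and secretes antibody instead. In tumors B cells can present antigen on MHC class II to helper T cells, form follicle-like clusters with them, or become plasma cells.

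Cells with the B cells label made up a small share of every library. Such cells numbered 40 among 10294 in library M1 (0.389%), 31 among 8940 in M2 (0.347%), 19 among 7160 in M5 (0.265%) and 34 among 7567 in M6 (0.449%). The exact 95% binomial intervals of these shares, which cover counting error only, all overlapped: they ran from 0.160 to 0.414% in M5, the lowest, and from 0.311 to 0.627% in M6, the highest. Cells labelled Stroma made up much of the denominator, to a different extent in each library. Among cells of the other labels the share was 1.00% in M1 and 0.364% in M5, with intervals of 0.716 to 1.36% and 0.220 to 0.568% that no longer overlapped, so the order of the libraries depended on the denominator. The cells were the shallowest of the 12 labels, with a median of 2811 UMIs (unique molecular identifiers, 1 per captured transcript) and a range of 1609 to 21579, against label medians of 3717 UMIs for T cell Naive and 40692 UMIs for Stroma. Their median share of mitochondrial UMIs was 5.87%, and 1 of the 124 cells had a doublet score over 0.25. Of 222 cells whose barcode occurs in more than 1 library, 1 had the B cells label.

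At least 2 of the 3 markers of B cells were found in 114 of the 124 cells (91.9%). Cd79a (chr7:24897381-24902197, GRCm38, plus strand) had a UMI in 122 of the 124 cells, with a median of 7 UMIs and at most 27 in a cell. Cd79b (chr11:106311341-106314762, minus strand) had a UMI in 94 cells, and Ms4a1 (chr19:11249675-11266241, minus strand), which encodes CD20, in 104. All 3 were seen in 83 cells, 2 of them in 31, 1 in 9 and none in 1. By library the summed level of Cd79a was 2505 CPM (UMIs of the gene in a total scaled to 1000000) in M1, 1934 CPM in M2, 2691 CPM in M5 and 2748 CPM in M6, and the highest level in any other label was 18.8 CPM. The 4 libraries thus lay within a narrow range, all far above the other labels. Cd79b stood at 894, 675, 959 and 1298 CPM in the same order, against 5.13 CPM in the highest other label. Ms4a1 stood at 988, 930, 1221 and 1370 CPM, against 20.5 CPM. With each cell thinned to 1000 UMIs, so that depth no longer differed, 83 cells (66.9%, 57.9 to 75.1%) kept at least 2 of the 3 markers. Of NK cells, which should lack these genes and have a median depth of 5397 UMIs, 0 of 4398 did, which allows up to 0.0682% (3 counts).

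The 10 cells with fewer than 2 of the markers had 1652 to 4863 UMIs, with a median of 3099. Of these 10, 9 had a UMI of Cd79a and of Ebf1, a transcription factor that sets the B lineage, 7 had Ighm and 9 had Igkc. The cell with none of the markers, in M1, carried 5 UMIs of Siglech, 6 of Cox6a2 and 9 of Ccr9, which mark plasmacytoid dendritic cells, and no Igkc. It is 1 of 124 and is left out where stated.

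**Figure D1:**
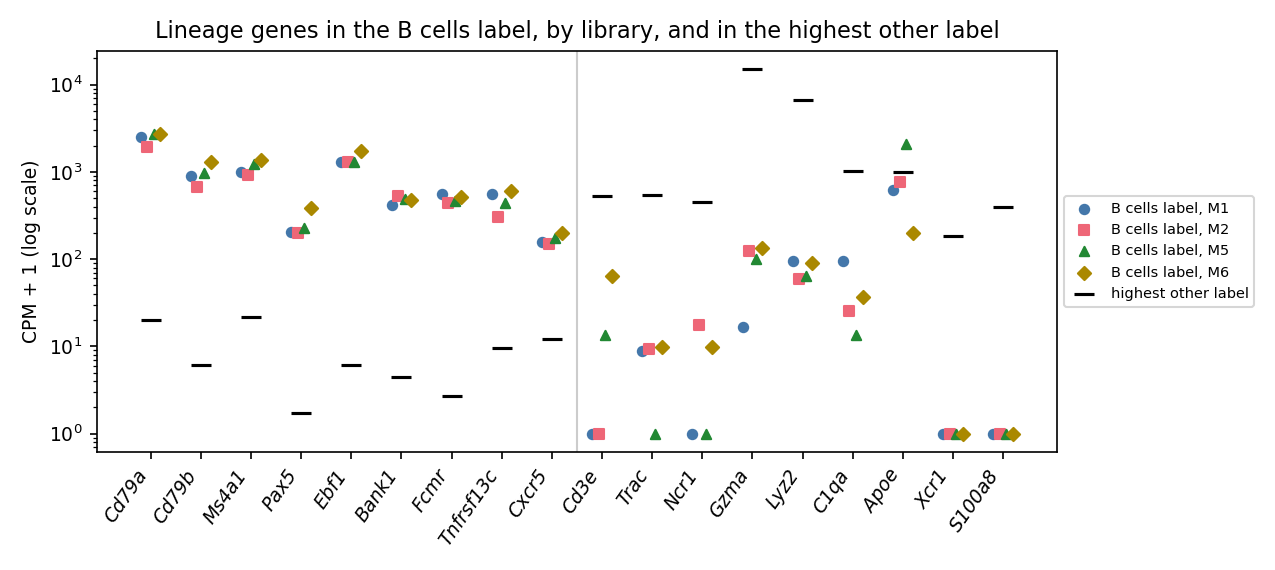
Level of lineage genes in the B cells label, in CPM plus 1 on a log scale, with 1 point per library (circle M1, square M2, triangle M5, diamond M6) and a black bar for the highest pooled level in any other label of at least 50 cells. Left of the line, B-lineage genes lie far above the bar in every library (Cd79a, 1934 to 2748 CPM against 18.8), and right of it genes of other cell types lie below it, apart from Apoe (196 to 2105 CPM against 1003).

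To see which genes set the cells apart, the level of each gene was divided by its level in the highest of the 10 other labels with at least 50 cells, after 10 CPM was added to both. Of 4944 genes with a UMI in at least 10 of the cells, 46 (0.930%) were at least 4-fold higher than in every other label and 232 (4.69%) at least 4-fold lower than in the highest one. With 1 CPM added in place of 10, 70 genes were past the limit on the higher side. The median log2 ratio over all 4944 genes was -0.40. The steepest ratios belonged to Igkc (7.92), Ebf1 (6.55), Cd79a (6.41), Cd79b (5.99), Fcmr (5.44), which encodes a receptor for IgM, and Ighd (5.36). Of the 12161 Igkc UMIs 8990 were in 1 cell, and without the cells with Jchain or Siglech the ratio of Igkc was 6.07, below Ebf1 (6.69), Cd79a (6.54) and Cd79b (6.12). Just inside the limit were Spib (2.05), Blnk (2.04) and Trim7 (2.02), and just outside it A630001G21Rik and Cecr2 (1.98 each) and Tmem108 (1.95). Of the 46 genes, 31 were on lists of B cell or other immune genes and 15 were on none.

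The antigen receptor itself gave 7 of 8 genes past the limit, with a median log2 ratio of 5.08. Ighm, the IgM heavy chain (chr12:113418558-113422730, minus strand), was at 2598, 2617, 3326 and 3664 CPM in M1, M2, M5 and M6, against 164 CPM in the label T cells. After thinning, 81.5% of the cells had an Ighm UMI, against 3.57% of NK cells. Ighd, the IgD heavy chain, was at 337 to 569 CPM over the libraries and at most 0.981 CPM in another label. Iglc3, the exception, had a log2 ratio of 1.83, with 44.7 CPM in the label DC. Iglc2 and Iglc3 are near-identical copies, so the division of reads between them is uncertain.

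Of the 19 genes for co-receptors and signalling behind the receptor, 9 were past the limit and 1, the inhibitory Fc receptor Fcgr2b, was on the lower side (65.5 CPM against 307 in the label Myeloid). The median log2 ratio of the list was 1.52. Cr2, a complement receptor, had a UMI in 20 cells (51.9 CPM). Bank1, a scaffold protein of B cells, was at 420 to 527 CPM and Blk, a Src family kinase, at 132 to 267 CPM. The inhibitory lectins Siglecg and Cd22 were at 269 and 102 CPM, with log2 ratios of 3.06 and 3.10. Lyn, Syk, Btk and Plcg2, kinases and the phospholipase that B cells share with myeloid cells, did not pass (log2 ratios of 0.36, 1.25, 1.25 and 0.22).

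Among 10 further genes, most of them for surface proteins, 5 were past the limit. Fcmr (444 to 560 CPM), Ly6d (346 to 1049 CPM), Vpreb3 (125 to 382 CPM) and Fcer2a, which encodes CD23 (49.8 to 206 CPM), joined Ms4a1. Cd37, Cd24a and Cd38, which other leukocytes also make, did not pass. Of 13 transcription factors of the lineage 5 passed. Ebf1 had a UMI in 118 cells and stood at 1283 to 1734 CPM, against 5.13 CPM elsewhere. Pax5, which keeps cells in the B lineage, had a UMI in 69 cells and was at 202, 198, 224 and 382 CPM. Pou2af1, a coactivator at immunoglobulin promoters, Mef2c and Spib were the others. Spi1 and Irf8, shared with myeloid, dendritic and NK cells, had log2 ratios of -1.11 and -1.57.

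The 15 genes past the limit that were on no list were Gm31243 (log2 ratio 3.74), Gm30211, Srpk3, 4930597A21Rik, Bcl7a, Fam129c, Dennd5b, Ralgps2, Myl4, Chst3, Trim11, Snn, Sbk1, Lyl1 and Trim7 (2.02). Gm31243 had a UMI in 44 cells and stood at 109, 165, 87.2 and 133 CPM, against 0.211 CPM in the highest other label. Srpk3, a kinase of splicing factors, had a UMI in 25 cells at 46.7 to 107 CPM over the libraries. These were named after their values were seen.

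Since these genes were high together, their promoters were searched for 3 motifs that B-lineage factors are known to bind, on both strands: ATGCAAAT, the octamer bound by Oct factors with Pou2af1, TCCCNNGGG, the core bound by Ebf1, and CAGGTG, an E-box bound by the Tcf3 product. Promoters were taken from RefSeq (GRCm38.p6), from 250 bases before to 50 after each start, and 30 of the 46 genes had an entry. The octamer was in 3 of the 30 (10.0%), the Ebf1 core in 2 (6.67%) and the E-box in 14 (46.7%). Over 27025 genes the shares were 1.97, 7.48 and 22.6%. Over the 3922 tested genes with an entry they were 1.58, 8.98 and 18.9%. Ccr6 also had the octamer and Chst3 the Ebf1 core, and neither is printed below. A match is a description of the letters and not a bound site. The promoters of 4 of these genes are shown, in the direction of the gene and with each match in capitals, because Cd79a is the most widely detected marker and the other 3 carry an octamer or the Ebf1 core. Cd79a lies at chr7:24897247-24897546 on the plus strand, Cd22 at chr7:30878979-30879278 on the minus strand, Vpreb3 at chr10:75948050-75948349 on the plus strand and Blnk at chr19:40994172-40994471 on the minus strand.
Cd79a: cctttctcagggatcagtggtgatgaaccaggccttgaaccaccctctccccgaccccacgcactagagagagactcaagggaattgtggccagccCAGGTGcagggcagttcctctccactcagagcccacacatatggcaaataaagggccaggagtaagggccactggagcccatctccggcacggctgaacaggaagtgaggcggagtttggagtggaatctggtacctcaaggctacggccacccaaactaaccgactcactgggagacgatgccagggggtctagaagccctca
Cd22: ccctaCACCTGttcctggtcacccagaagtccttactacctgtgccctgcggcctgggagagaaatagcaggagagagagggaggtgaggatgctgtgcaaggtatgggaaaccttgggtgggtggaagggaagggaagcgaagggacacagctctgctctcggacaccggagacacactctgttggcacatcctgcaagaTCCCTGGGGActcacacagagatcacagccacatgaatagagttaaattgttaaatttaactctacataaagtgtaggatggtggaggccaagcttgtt
Vpreb3: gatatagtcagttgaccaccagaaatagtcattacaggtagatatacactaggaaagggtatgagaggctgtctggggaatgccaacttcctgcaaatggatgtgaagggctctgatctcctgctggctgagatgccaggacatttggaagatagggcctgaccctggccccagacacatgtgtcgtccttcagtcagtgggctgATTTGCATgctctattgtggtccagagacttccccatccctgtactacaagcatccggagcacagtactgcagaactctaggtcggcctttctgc
Blnk: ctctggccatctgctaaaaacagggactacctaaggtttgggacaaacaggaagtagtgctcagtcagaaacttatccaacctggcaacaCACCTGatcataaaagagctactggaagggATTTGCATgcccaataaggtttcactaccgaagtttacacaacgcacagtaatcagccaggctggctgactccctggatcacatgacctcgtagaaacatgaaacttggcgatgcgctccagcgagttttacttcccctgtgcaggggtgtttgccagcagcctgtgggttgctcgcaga
Distances are to the RefSeq start, which differs from the GENCODE gene position. That of Cd79a begins at 24897381, inside the printed window. Those of Cd22 (30880342), Vpreb3 (75943057) and Blnk (40994535) begin outside their windows, so the distances hold for the RefSeq start only. The E-box of Cd79a began 154 bases before the RefSeq start. In Cd22 the E-box, read on the opposite strand, began 245 bases and the Ebf1 core, which was matched on both strands and so overlapped itself, 49 bases before the start. The octamer, also on the opposite strand, began 45 bases before the start of Vpreb3 and 130 bases before that of Blnk, where an E-box began at 160 bases. No match overlapped one of another motif.

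Nearly all cells carried unswitched heavy chains. By the constant region with more UMIs, and at least 2 UMIs, 119 of the 124 cells (96.0%, 90.8 to 98.7%) were of the IgM or IgD class, 3 (2.42%, 0.502 to 6.91%) of a switched class, and 2 could not be called. Ighm and Ighd were both seen in 69 cells, Ighm alone in 50, Ighd alone in 3 and neither in 2. The 3 switched cells lay in 3 libraries, an IgG1 cell in M1, an IgG2 cell in M2 and an IgA cell in M5, and M6 had none. The IgA cell had 14 UMIs of Igha, 63 of Igkc and 25 of Apoe, and none of Jchain. Ighe had 0 UMIs in the label.

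The IgG1 and IgG2 cells were also the only cells of the label with Jchain, the chain that joins IgM and IgA into polymers and marks antibody-secreting cells. The cell in M2 held 21579 UMIs, of which 8990 (41.7%) were Igkc, with 1055 of Jchain, 227 of Mzb1, 78 of Ighg2b, 62 of Ighg2c, 3 of Ighg3, 22 of Ighm and 5 of Sdc1, the plasma cell marker CD138. Its Cd74 count was 17. Its doublet score of 0.422 was the only one over the limit in the label. The cell in M1 held 17804 UMIs with 86 of Ighg1, 135 of Igkc, 41 of Jchain and 183 of Cd74, and none of Ighm. Balb/c mice carry Ighg2a where the reference strain carries Ighg2c, so which IgG2 gene the M2 reads came from is uncertain. This 1 cell set the level of Igkc in its library. Igkc stood at 80137 CPM in M2 against 7350, 7662 and 7675 CPM in M1, M5 and M6, and at 7485 CPM in M2 without it. Mzb1 in M2 went from 2222 to 430 CPM in the same way. Of 10 plasma cell genes 5 were tested and 1, Mzb1, was past the limit, and Jchain rested on the 2 cells. Txndc5, a chaperone of the secretory route, was seen in 28 cells at 136 CPM (72.8 CPM without the Jchain and Siglech cells, against 113 CPM in Stroma). Irf4, a transcription factor of activated B cells and plasma cells, was seen in 18 cells at 56.5 CPM against 35.9 CPM in T cells, and Xbp1, which expands the secretory machinery, in 21 cells at 67.8 CPM against 129 CPM in DC. Prdm1, which drives plasma cell fate, had a UMI in 3 cells, Sdc1 in 4 and Tnfrsf17, the receptor BCMA, in 1.

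Light chains were mostly kappa. Igkc had a UMI in 120 of the 124 cells, with a median of 24 per cell. Where at least 90% of the light chain constant UMIs of a cell had to be of 1 kind, 80 cells (64.5%, 55.4 to 72.9%) were kappa, 4 (3.23%, 0.886 to 8.05%) lambda and 39 (31.5%, 23.4 to 40.4%) of both kinds, and 1 had too few UMIs. Of the 4 lambda cells 3 were in M1, and without that library the lambda share was 1.19%. With at least 5 UMIs it was 1.61%. With a limit of 80%, 18 cells (14.5%) were of both kinds. Kappa cells were 57.5 and 58.1% of the cells in M1 and M2 and 63.2 and 79.4% of those in M5 and M6, with overlapping intervals. In 33 of the 39 cells with both kinds kappa was the larger, with a median of 78.3% of light chain UMIs over the 39. None of the 39 had a doublet score over 0.25. That score is not made to find pairs of like cells, so it cannot tell whether these were pairs of B cells. After thinning, 46.0% of the cells had a lambda UMI, against 7.01% (5.04 to 9.46%) of DC and 0.0455% of NK cells. Of the 4 lambda cells the clearest, in M1, had 23 UMIs of Iglc1, 6 of Iglc2 and none of Igkc, and another was the cell with plasmacytoid dendritic cell genes. Variable region genes had a UMI in 34 cells, too few to compare.

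**Figure D2:**
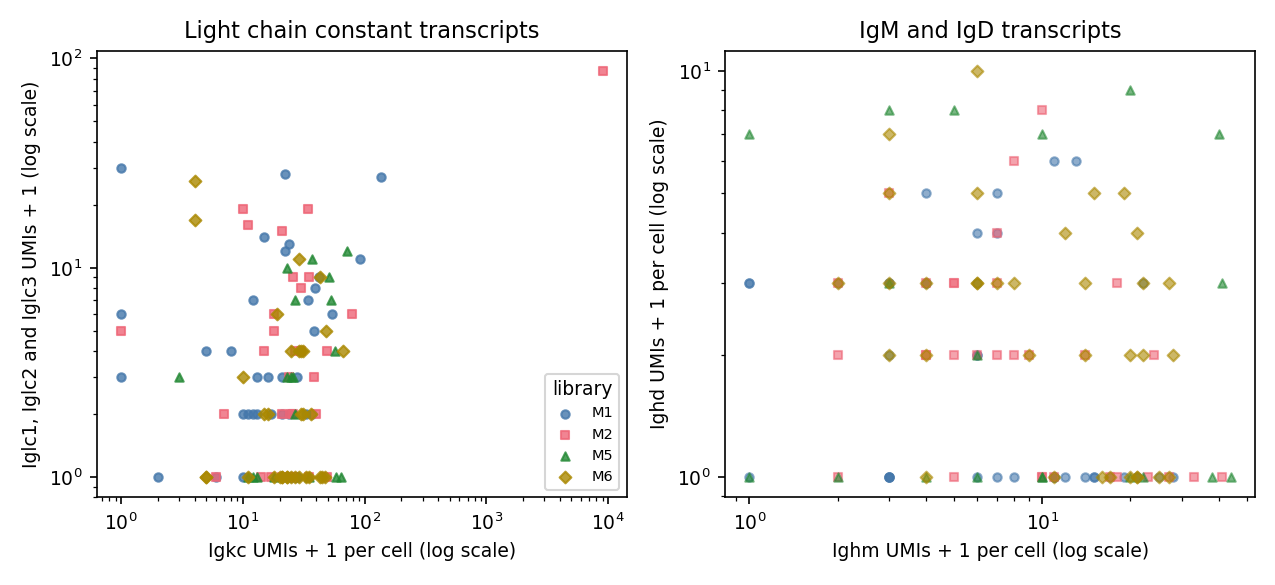
Immunoglobulin constant transcripts of the 124 cells, 1 point per cell by library (circle M1, square M2, triangle M5, diamond M6), in UMIs plus 1 on log scales. On the left, kappa against summed lambda UMIs: most cells lie low at about the median of 24 Igkc UMIs, and the M2 cell with 8990 lies alone at the right. On the right, Ighm against Ighd: 69 cells have both and 50 lie on the lower line with no Ighd UMI.

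Ighd divided the cells into those with a UMI and those without. Without the Jchain, Siglech and switched cells these were 72 and 48 cells, with like median depths of 2795 and 2774 UMIs. Fcer2a, a gene of mature follicular B cells, had a UMI in 33 of the 72 (45.8%, 34.0 to 58.0%) and in 7 of the 48 (14.6%, 6.07 to 27.8%). The share was higher with Ighd in all 4 libraries, with 11 of 18 against 4 of 20 cells in M1, 11 of 20 against 1 of 10 in M2, 3 of 9 against 1 of 9 in M5 and 8 of 25 against 1 of 9 in M6. At 1000 UMIs per cell it was 20.8% (12.2 to 32.0%) against 6.25% (1.31 to 17.2%), and these intervals overlapped. Ly6d went the other way, at 43.1% (31.4 to 55.3%) against 60.4% (45.3 to 74.2%), with intervals that overlapped. At 1000 UMIs it was 25.0% (15.5 to 36.6%) against 54.2% (39.2 to 68.6%), and they did not. Both sets of cells come from the same libraries and were divided by a measured transcript, so no test was made.

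Genes of the germinal centre and of division were rare. Bcl6, the repressor that sets the germinal centre program, and Fas were each seen in 5 cells, and Gcsam, Mybl1 and Rgs13 had 0 UMIs, which allows a share of up to 2.42% of cells with a UMI. None of the 7 genes on the list reached 10 cells. Mki67 was seen in 3 cells, Top2a in 4 and Cdk1 in 1, and Ccnb2 in none. Of the 9 division genes only Pcna and Stmn1 were seen in at least 10 cells, with log2 ratios of -1.07 and -3.17 to the label T cell EFF. Of 10 genes of marginal zone and B-1 cells 5 were tested, with none past the limit on the higher side and 1, Cd9, on the lower. Cd9 was seen in 29 cells, at 94.9 CPM against 1041 CPM in Stroma. Plac8 was seen in 73 cells at 795 CPM against 1169 CPM in NK cells. Dtx1, a gene of the Notch pathway, was seen in 20 cells (log2 ratio 0.92), Bhlhe41, a transcription factor of B-1 cells, in 16 (1.31) and Cd5 in 4. Of 5 genes of atypical memory cells 1 was tested, Zeb2, and it was past the limit on the lower side (92.6 CPM against 538 CPM in Myeloid). Zeb2 was seen in 28 cells, Tbx21 in 1 and Itgax in none. For these lists the highest other label is of another cell type, so the ratios do not tell whether such B cells were present.

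Genes of lymph node homing and recirculation were detected, most of them below their level in the label T cell Naive, which has 55 cells. Ccr7, which guides cells to lymph nodes, was at 436, 593, 386 and 525 CPM in M1, M2, M5 and M6, against 912, 907, 613 and 789 CPM in T cell Naive. Klf2, which keeps S1pr1 on in resting lymphocytes, was at 856, 1267, 1034 and 765 CPM against 1465, 2268, 929 and 1359 CPM. Both were thus lower in the B cells label, apart from Klf2 in M5. S1pr1, the receptor for exit from tissue, was at 54.4 to 162 CPM against 255 to 598 CPM, with no overlap between the labels. Cxcr5, the receptor for the follicle, was at 156, 148, 174 and 196 CPM and listed at 0 in T cell Naive in every library. Cxcr5 and Ccr6 were the 2 of 9 homing genes past the limit.

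The receptor for the survival factor BAFF, Tnfrsf13c, was seen in 85 cells, at 560, 304, 436 and 605 CPM, against 8.46 CPM in the highest other label. Tnfrsf13b, which encodes TACI, was seen in 22 cells at 62.2 to 74.7 CPM. The ligands Tnfsf13b and Tnfsf13 had 0 UMIs among the 442797 of the label, which allows up to 6.78 CPM. In the highest other label Tnfsf13b was at 10.6 CPM (T cell EFF) and Tnfsf13 at 0.0790 CPM (Myeloid), so the absence of Tnfsf13 does not set the label apart.

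Genes of antigen presentation on MHC class II were as high as in the label DC or somewhat lower, and the accessory chains differed. Cd74, the invariant chain, was at 12033, 11200, 11761 and 12388 CPM in M1, M2, M5 and M6, against 8747, 10385, 13356 and 10860 CPM in DC, so the labels overlapped. The classical chains H2-Aa, H2-Ab1 and H2-Eb1 were at 4323, 3164 and 3399 CPM pooled, against 5769, 4507 and 4590 CPM in DC. H2-Oa and H2-Ob, the chains of DO, which restrains peptide loading, were higher than in DC in every library. H2-Oa was at 171, 107, 149 and 160 CPM against 45.7, 37.2, 52.3 and 34.2 CPM, and H2-Ob at 101, 115, 162 and 196 CPM against 22.8 to 24.8 CPM. H2-DMb2 was at 560 to 658 CPM against 205 to 274 CPM, and H2-DMb1 at 116 to 162 CPM against 423 to 682 CPM, again with no overlap. These 2 genes are near copies of each other, and reads shared between them could be divided unevenly. H2-Ob was the 1 of 10 genes on the list past the limit (log2 ratio 2.14). Ciita, the master regulator, was at 65.5 CPM against 72.4 CPM in DC.

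**Figure D3:**
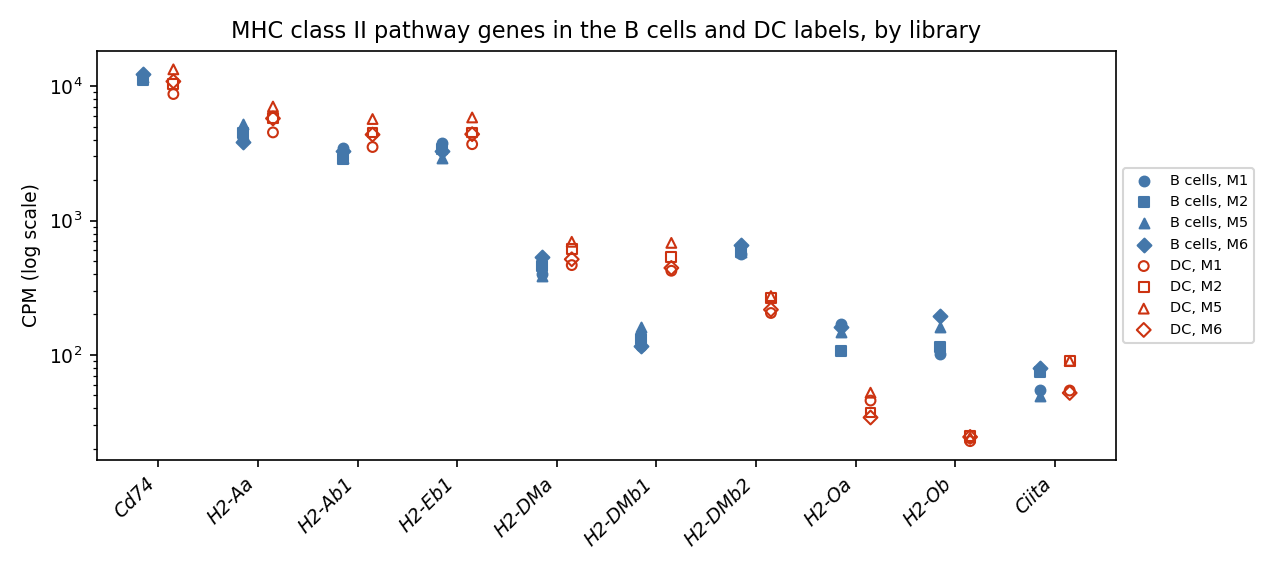
MHC class II genes in CPM on a log scale, with 1 point per library for the B cells label (filled) and the DC label (open), circle M1, square M2, triangle M5 and diamond M6. Cd74 overlaps between the labels, H2-DMb2, H2-Oa and H2-Ob lie higher in every library of the B cells label, and H2-DMb1 lies lower.

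Of 12 genes of costimulation and checkpoints 3 were tested, with none past the limit on the higher side and 2 on the lower. Over all 4944 tested genes 0.930% were past it on the higher and 4.69% on the lower side. None of 3 on the higher side thus says little of this list. Cd86 was seen in 53 cells at 109, 239, 287 and 276 CPM (265 CPM in DC), and Cd83, induced on activation, in 84 cells at 498 to 703 CPM (474 CPM in DC). Cd40 was seen in 13 cells at 33.9 CPM against 93.6 CPM in DC, and Cd80 in 4. The targets of the treatment were scarce. Pdcd1, encoding PD-1, was seen in 3 cells, 6.78 CPM against 567 CPM in T cell EFF. Tnfrsf18, encoding GITR, was seen in 11 cells, at 31.1, 16.5, 49.8 and 44.5 CPM, against 750 CPM in the label NKT. At 1000 UMIs per cell the shares were 0.806% (0.0204 to 4.41%) for Pdcd1 and 3.23% (0.886 to 8.05%) for Tnfrsf18, against 1.80 and 3.78% in DC, 2.80 and 4.55% in Myeloid and 0.204 and 0.210% in Stroma. Neither share was above that in the DC and Myeloid labels. Cd274, encoding PD-L1, was seen in 22 cells at 54.4 to 74.7 CPM against 367 CPM in Myeloid, and Pdcd1lg2 in 5 cells. The GITR ligand gene Tnfsf18 had 0 UMIs, and was at only 0.490 CPM in the highest other label, DC.

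Immediate early genes, which rise on receptor signals and also during dissociation of tissue, were detected. None of 12 tested was past the limit on the higher side and 3 were on the lower. Over all 4944 tested genes the shares were 0.930 and 4.69%. That none was on the higher side thus says little of this list or of those that follow. Nr4a1, a target of the antigen receptor, was at 319, 280, 149 and 320 CPM, against at most 169 CPM in another label, and Cd69 at 303, 288, 99.7 and 293 CPM (260 CPM pooled, as in NKT). M5 was the lowest of the libraries for both. For Fosb and Egr1 M5 was the highest, at 586 and 424 CPM against 71.1 to 206 and 65.8 to 142 CPM, but 1 cell gave 38 of the 47 Fosb UMIs of M5 and 1 cell 32 of its 34 Egr1 UMIs. Without the highest cell of each gene the levels in M5 were 127 CPM for Fosb and 28.2 CPM for Egr1. Of the interferon response list 5 genes were tested, with none past the limit on the higher side and 3 on the lower. Ifi27l2a was seen in 72 cells, at 459, 263, 336 and 694 CPM, M6 being the highest, and was 1 of the 3 on the lower side (443 CPM pooled against 2900 CPM in T cells). The lower side is set by the highest label alone, and Ifi27l2a was at 139 CPM in NK cells and 566 CPM in DC. Ifit1, Ifit3, Oasl2, Rsad2 and Usp18 were each seen in at most 4 cells. Of 14 cytokine genes 4 were tested, with none past the limit on the higher side and 1 on the lower. Ltb, encoding lymphotoxin beta, was at 321 to 471 CPM and Tgfb1 at 296 to 409 CPM. Il12a was seen in 10 cells, Il6 in 1 and Il10 in none.

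Transcripts of other cell types were mostly few. At full depth Gzma, a granzyme of NK cells, was seen in 28 cells and Lyz2, a myeloid lysozyme, in 27, with 40 and 34 UMIs in all. At 1000 UMIs per cell, at least 2 UMIs of the T cell list were in 2 cells (1.61%, 0.196 to 5.70%), of the NK list in none of 124 and of the stroma and tumor list in 1, a cell of M1. For the NK list the share depended on the setting, at 10.5% with 1 UMI in place of 2 and at 5.36% (6 of 112 cells) at 2000 UMIs. The 8 T cell genes summed to 49.8 to 65.8 CPM in M1, M2 and M5 and to 329 CPM in M6, where 1 cell gave 6 of the Trbc2 UMIs. Xcr1, Clec9a, S100a8, Csf1r, Cpa3 and Hbb-bs had 0 UMIs. Of the macrophage and monocyte list 28 cells (22.6%, 15.6 to 31.0%) had at least 2 UMIs, and 3 (2.42%) when Apoe was left out of it. At least 2 UMIs of the list were in 10.9% (4.11 to 22.2%) of T cell Naive, 14.9% of DC and 3.55% of NK cells, and without Apoe in 7.27, 13.7 and 3.12% of them.

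Apoe, which encodes a lipid carrier that macrophages make in quantity, was seen in 58 of the 124 cells. Its level was 614 CPM in M1, 765 CPM in M2, 2105 CPM in M5 and 196 CPM in M6, against 1003 CPM in Myeloid, so M5 lay above the Myeloid level and M6 well below it. The counts were uneven among cells: 9 cells with at least 10 Apoe UMIs held 231 of the 363, with at most 67 in a cell, and 5 of the 9 were in M5 and none in M6. Of these 9 cells 8 had at least 2 of the B cell markers, 2 had a UMI of C1qa, C1qb or C1qc, none had Lyz2 and none had a doublet score over 0.25. Over the label Apoe had 10.7 UMIs for each C1q UMI and 10.7 for each Lyz2 UMI. In Myeloid cells the ratios were 0.420 and 0.151, and in NK cells 0.318 and 0.183. Where the Apoe transcripts came from was not tested.

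**Figure D4:**
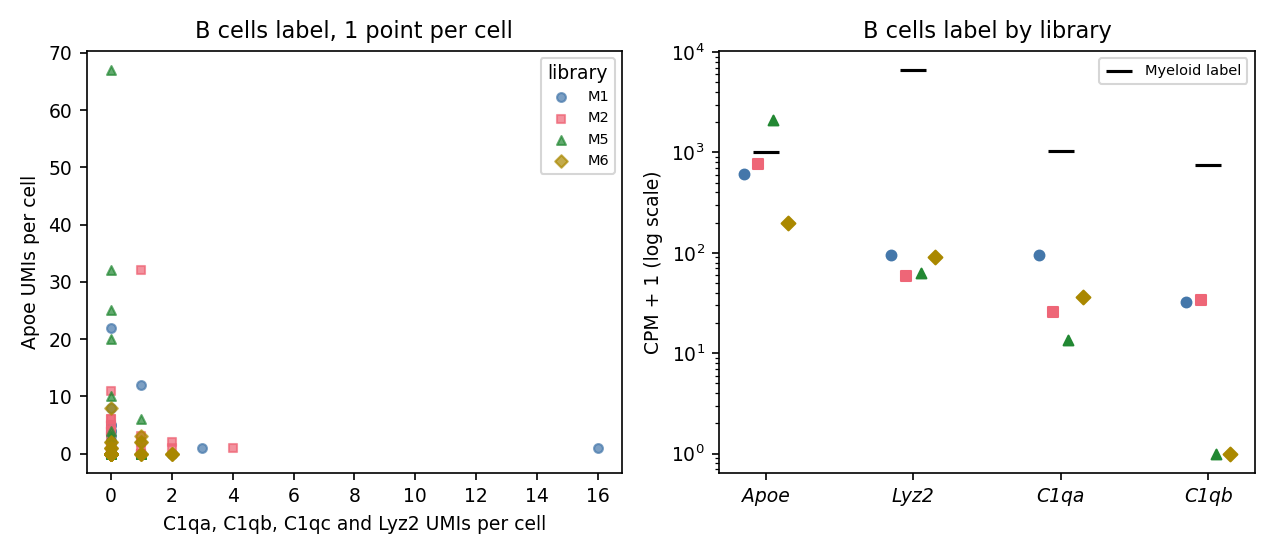
On the left, Apoe UMIs of each cell of the B cells label against its summed C1qa, C1qb, C1qc and Lyz2 UMIs, by library. On the right, CPM plus 1 on a log scale of Apoe, Lyz2, C1qa and C1qb in the label by library (circle M1, square M2, triangle M5, diamond M6), with a black bar for the Myeloid label. The cells with the most Apoe, up to 67 UMIs, have 0 or 1 UMI of the other genes, and Apoe runs from 196 CPM in M6 to 2105 CPM in M5 around the Myeloid level of 1003 CPM, with the other genes below their Myeloid levels.

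B cell transcripts also occurred outside the label. At full depth 48 of 33837 cells of other labels had at least 2 of the 3 markers: 14 in Myeloid, 12 in Stroma, 10 in ILC, 6 in T cell EFF, 3 in NK cells and 1 each in DC, T cell MEM and T cells. They were deep, with a median of 31359 UMIs, and 23 of the 48 were in M1, so that 25 remained without that library. Of these 48 cells 41 had a light chain UMI. At least 5 UMIs of T cell, NK cell, macrophage or stroma genes were in 47 of them, and in 6 of the 124 cells of the label. These counts were not thinned, and the cells of the label were far shallower. The share over all cells of other labels was not computed. Labels such as Myeloid, Stroma and T cell EFF were set by expression, so UMIs of these genes follow from the label. The count of 47 can therefore not tell whether the cells were mixed. A doublet score over 0.25 was found in 4. Thinned to 1000 UMIs, 5 of the 33837 cells had at least 2 markers. Outside the label 2 cells held over 100 Jchain UMIs, against 1 inside it. The first, labelled ILC in M2, had 507 UMIs of Ighg2b, 1463 of Igkc and 118 of Jchain with a doublet score of 0.422, and the second, labelled Myeloid in M5, had 808 of Igha, 1640 of Igkc and 229 of Jchain among 48296 UMIs.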

How the data were processed

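Tumor-infiltrating leukocytes were profiled by droplet single-cell mRNA-seq with 3' UMI counting. The authors counted UMIs with Cell Ranger 3.0.2 on GRCm38, kept cells over 500 UMIs, and deposited raw counts of 31053 genes, not normalized, with each cell's total, library and label. The labels came from correlation with ImmGen profiles, and no removal of doublets or of free RNA is named. For each label, the UMIs of its cells were added up per gene and expressed in CPM (Python 3.11.15, numpy 2.4.6, scipy 1.17.1, pandas 2.3.3). Cells were thinned without replacement to 1000 UMIs, which keeps every cell. Exact Clopper-Pearson intervals (95%) reflect counting error alone, and where a gene had 0 UMIs the limit was set at 3. Ratio and thinning were run on counts simulated from NK cells, with 1 reference group and not the highest of 10 labels. The rule of the highest label was thus not simulated, and the outcome is not given here. Doublets were scored with scrublet in scanpy 1.11.5 (expected rate 0.06) and stayed in unless stated. The libraries, with 158337797 to 315577167 UMIs, are of unknown treatment, so no p-value is given. Gene positions are from GENCODE M21. Genes were named by rule: the markers, the members of each list highest in the label, the steepest ratios, and the treatment targets. The members and lists were chosen with earlier results of these data known. Alternatives left out a library, doublets or cells over 10% mitochondrial UMIs, or changed depth, pseudocount, filter or limit. The results of a few single genes are not reported here.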

Additional observations from a re-analysis of the deposited data

How the results depend on the processing

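Of 101 recomputed values of 12 results, 85 stayed within the counting interval of the value reported or, for counts, within 1.5 times of it. Many had little room to move. For 48 of them 1 library was left out, so most cells were the same, and 2 of the 48 moved. Leaving out doublets or cells over 10% mitochondrial UMIs removed only 1 or 6 of the 124 cells. The share of the label was 0.679% of cells not labelled Stroma. At least 2 markers were found in 84.8% at 2000 UMIs (95 of the 112 cells deep enough) and in 91.9% with no thinning. With 80% in place of 90% of light chain UMIs, kappa cells were 79.8% and cells of both kinds 14.5%. With 1 UMI in place of 2, transcripts of T cells were in 9.68%, of NK cells in 10.5%, of macrophages in 45.2% and of stroma in 8.06% of the cells. At 2000 UMIs, in the same 112 cells, those of NK cells were in 5.36% and of macrophages in 33.9%. At 1000 UMIs, in all 124 cells, those of macrophages were in 2.42% without Apoe. Genes past the limit numbered 70 with a pseudocount of 1 CPM. Cells of other labels with 2 markers were 5 after thinning. The cause of these shifts was not tested.

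Leaving out 1 library at a time gave 0.341 to 0.392% for the share of the label, 60.0 to 72.0% for cells with 2 markers, 58.9 to 67.9% for kappa and 1.19 to 4.44% for lambda. The switched share ran from 1.90 to 3.33%. Transcripts of T cells ran from 1.11 to 2.15%, of macrophages from 18.3 to 30.0% and of stroma from 0% (without M1) to 1.11%. Genes past the limit ran from 41 to 51, and cells of other labels with 2 markers from 25 (without M1) to 44.

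The alternatives without Apoe, and without the Jchain and Siglech cells, were chosen after the data were seen. The division of the cells by Ighd was not among the planned results. Depth limits what is said of genes at 0, and 19 to 40 cells per library limit every library value. No paired analysis was possible because the libraries carry no replicate number and match no group.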
